A study of Mus musculus with 24 samples.

Results

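This account describes the genotype difference in muscle that received no drug: 3 arrays of untreated MuRF1 knockout (KO) triceps surae from the 3-day arm of the study, set against 3 arrays of untreated wild-type (WT) triceps surae from the same arm, 6 of 24 arrays in all. The arrays were chosen by their labels, and the comparison runs over all 16262 features (genes or unnamed probes) that were detected on the beadchips. The mice were C57/Bl6 of 4 months, and the triceps surae is the calf muscle group. The KO group carried the MuRF1 knockout and the WT group did not, and neither received dexamethasone, which the study gave to other mice at 3 mg/kg in drinking water for 3 or 14 days. The untreated mice were littermate controls housed alongside the treated ones, so the day names the arm and not an exposure. Comparisons made beside this one use the untreated KO and WT arrays of the 14-day arm and the dexamethasone KO and WT arrays of both arms, again 3 arrays a group. The sources used here do not give the design of the knockout allele, the sex of the mice or the day or slide of each array. Nothing in the labels says that the 3 samples of a group are 3 animals, so p-values cover the spread among samples only, part or all of which may be technical. Bulk muscle RNA was measured, in which fewer cells of a type and less RNA per cell cannot be told apart.

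MuRF1, encoded by Trim63, is a RING-type ubiquitin ligase of striated muscle that binds titin at the M-band and attaches ubiquitin to sarcomeric proteins, which the proteasome then degrades. Its transcript rises in many forms of muscle wasting, and mice without it lose less muscle after denervation. Its close relatives are MuRF2 (Trim55) and MuRF3 (Trim54), and the F-box protein atrogin-1 (Fbxo32) is the other well-known ligase subunit of muscle wasting.

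All 6 libraries carried a strong skeletal muscle signal: Acta1, Ckm, Tnnt3, Myh4, Pvalb, Tnni2 and Atp2a1, which encode proteins of skeletal muscle fibres, were detected on all 6 arrays. Detected probes made up between 30.7% and 34.6% of all probes on KO arrays and between 34.9% and 36.1% on WT arrays. Mean signal before normalisation was 249.9, 249.1 and 180.3 on the KO arrays and 260.6 to 288.1 on the WT arrays. Each KO array was thus dimmer than each WT array, and the part of this in the features that passed was not tested. KO replicate 3, the dimmest, stood apart from the other 5 arrays. On the first principal component of the 6, which held 38.0% of the variance, it lay at 36.24 with the others between -17.65 and 5.91. The number of features that passed and the named genes lost without KO replicate 3 are therefore given below. Other results include it unless stated. Correlations across features were 0.981 to 0.992 among KO arrays, 0.986 to 0.992 among WT arrays and 0.976 to 0.989 between a KO and a WT array.

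Trim63 itself was read by a single probe. Its log2 signal was 4.51, 4.87 and 4.56 on the KO arrays, against 8.45, 8.65 and 8.49 on the WT arrays. Each KO array lay far below each WT array, and the probe was detected on 1 of 3 KO arrays and on 3 of 3 WT arrays. The log2 fold change, KO minus WT, was -3.88 (SE 0.188, limma adjusted p = 1.57e-12), so the 6 libraries matched their labels. No source used here places the probe inside or outside the deleted stretch.

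Beyond Trim63 the difference between the genotypes was small in number. Of 16262 features 53 passed an adjusted p of 0.05 in limma (0.326%), 17 of them higher (0.105%) and 36 lower (0.221%) in KO muscle. Named genes made up 39 of the 53, with 12 higher and 27 lower, and the other 14 were probes without a gene name. A log2 fold change of at least 1 in size was reached by 12 of the higher and 25 of the lower features. The median log2 fold change of all features was 0.003, and 97.3% of them lay within 0.5 of 0. The KO arrays did not overlap the WT arrays for any of the 53, a property that 2139 of all features (13.2%) had. At an unadjusted p of 0.05, 1060 features passed.

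**Figure D1:**
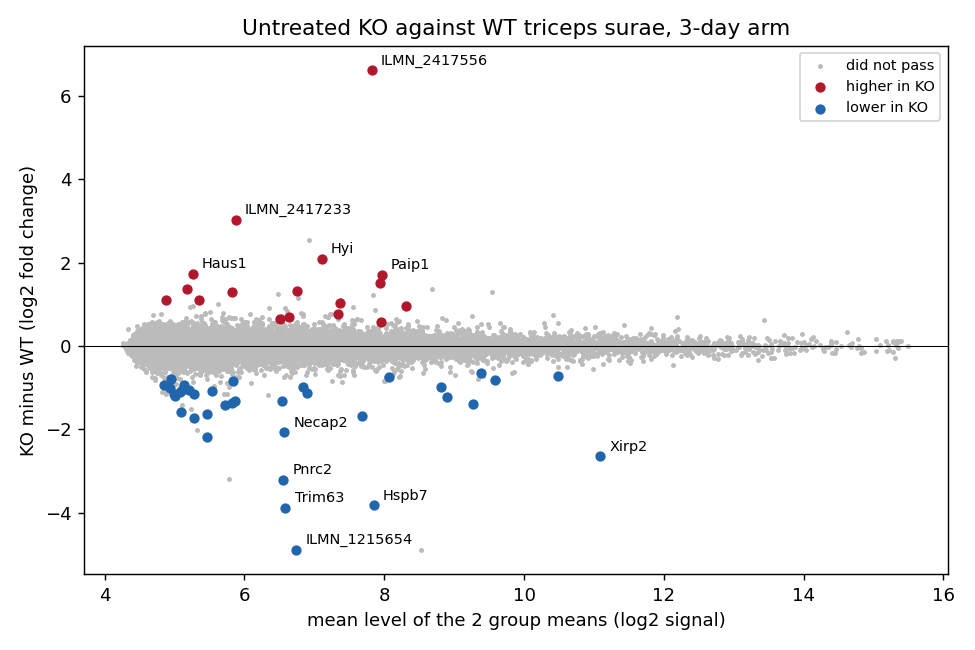
Each point is 1 of 16262 features, with the mean of the KO and WT group means (log2 signal) across and the fitted log2 fold change, KO minus WT, upward; red marks the 17 features higher in KO, blue the 36 lower in KO and grey those that did not pass. Most points lie within 0.5 of 0, and Trim63, Hspb7 and Pnrc2 are the lowest named genes, at -3.88, -3.83 and -3.21.

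Genes lower in KO muscle included Hspb7 and Xirp2, which have known roles in the muscle fibre. Hspb7 encodes a small heat shock protein of heart and skeletal muscle. Its log2 signal was 5.76, 5.92 and 6.12 on the KO arrays, against 10.06, 9.88 and 9.34 on the WT arrays, a log2 fold change of -3.83 (SE 0.23, limma adjusted p = 7.05e-11). The gap between the groups was wider than the spread inside either one, and the probe was detected on all 6 arrays. Xirp2 encodes a Xin-repeat protein that binds actin filaments in striated muscle. It stood at 9.67, 9.47 and 10.17 in KO muscle, against 12.89, 12.20 and 12.16 in WT muscle (log2 fold change -2.65, SE 0.25, limma adjusted p = 3.5e-07). That value came from the brighter of its probes, while the other, near background at means of 4.83 in KO and 5.05 in WT muscle, gave -0.22.

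Further genes with large differences had other roles. Pnrc2, an adaptor of messenger RNA decapping that also binds nuclear receptors, had log2 signals of 5.26, 4.62 and 4.98 on the KO arrays, against 8.09, 8.21 and 8.19 on the WT arrays (log2 fold change -3.21, SE 0.183, limma adjusted p = 2.68e-11). Necap2, which associates with clathrin adaptors, stood at 5.58, 5.57 and 5.46 in KO muscle, against 7.33, 7.77 and 7.71 in WT muscle (log2 fold change -2.07, adjusted p = 2.83e-08). Both genes were lower on each KO array than on each WT array. Bsdc1, which carries a BSD domain, read 7.03, 6.99 and 6.53 in KO muscle, against 8.58, 8.56 and 8.45 in WT muscle (log2 fold change -1.68, adjusted p = 7.45e-07). Padi2, which turns arginine residues of proteins into citrulline, and Rab6b, a GTPase of Golgi traffic, were not detected on any KO array. Padi2 was at least 2.91-fold lower in KO muscle (limma adjusted p = 1.51e-06) and Rab6b at least 2.21-fold lower (adjusted p = 1.79e-05). Such bounds set the WT mean against the lowest signal that counted as detected on the KO arrays.

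The remaining lower genes had smaller differences. Zinc finger genes Zfp933 and Zfp131 had log2 fold changes of -1.37 and -1.23, the GPN-loop GTPase gene Gpn2 -1.33, and Gatad2a, a subunit of the NuRD chromatin complex, -1.33. Eya3, a phosphatase and transcriptional coactivator of the Eyes absent family, had -1.14. Ube4b, a U-box ubiquitin ligase that extends ubiquitin chains, stood at 8.35, 8.53 and 8.10 on the KO arrays, against 9.11, 9.34 and 9.49 on the WT arrays (log2 fold change -0.99, SE 0.145, limma adjusted p = 0.000408). Ube4b was thus the other ubiquitin ligase, beside Trim63, that fell among those examined. Bst2, an interferon-induced membrane protein that tethers virus particles, read 6.15, 6.45 and 6.38 in KO muscle, against 7.18, 7.77 and 7.41 in WT muscle (log2 fold change -1.13, adjusted p = 0.00519). Txnl1, a thioredoxin-like protein found with the proteasome, Parp8, of the poly(ADP-ribose) polymerase family, and Zmym6 were not detected on any KO array and were at least 1.82-fold, 1.62-fold and 1.86-fold lower (limma adjusted p = 0.0051, 0.000408 and 0.000493).

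Genes higher in KO muscle were fewer and had diverse roles. Hyi, named for hydroxypyruvate isomerase, had log2 signals of 8.44, 8.49 and 7.52 on the KO arrays, against 5.82, 6.10 and 6.24 on the WT arrays (log2 fold change 2.10, SE 0.22, limma adjusted p = 1.94e-06). Its other probe lay near background in both groups, at means of 4.62 in KO and 4.43 in WT muscle. Haus1, a subunit of the augmin complex that nucleates spindle microtubules, stood at 6.01, 6.15 and 6.24 in KO muscle, against 4.66, 4.30 and 4.23 in WT muscle, where 1 of 3 arrays detected it (log2 fold change 1.74, adjusted p = 3.21e-06). Paip1, which binds the poly(A)-binding protein and promotes translation, read 8.81, 8.86 and 8.78 in KO muscle, against 6.99, 7.14 and 7.19 in WT muscle (log2 fold change 1.71, SE 0.152, adjusted p = 1.35e-07). The Paip1 arrays of each group lay within 0.2 of each other.

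Fmr1 encodes FMRP, an RNA-binding protein that restrains translation. Its log2 signal was 8.51, 8.46 and 9.12 on the KO arrays, against 7.68, 6.99 and 6.85 on the WT arrays (log2 fold change 1.52, SE 0.269, limma adjusted p = 0.00448). The highest KO value was that of replicate 3, and the difference was 1.31 (adjusted p = 0.0657) without that array and 1.36 (adjusted p = 0.0533) without WT replicate 3. Rbp7, a cellular retinol-binding protein, averaged 5.85 ± 0.126 in KO muscle and 4.49 ± 0.198 in WT muscle (SD, n = 3 each; log2 fold change 1.36, adjusted p = 0.000142). Cap1, which recycles actin monomers, read 7.30, 7.39 and 7.53 in KO muscle, against 5.84, 6.04 and 6.41 in WT muscle (log2 fold change 1.31, adjusted p = 0.00173). Smaller increases were those of Abhd8 at 1.04, of Nmrk2, a muscle kinase that makes NAD precursors from nicotinamide riboside, at 0.97, and of Rab4a, a GTPase of recycling endosomes, at 0.78. Lama4, a laminin chain of vessel and fibre basement membranes, rose by 0.70, Rasgef1b, an exchange factor for Ras-family GTPases, by 0.65, and Ncaph2, a condensin II subunit, by 0.59.

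**Figure D2:**
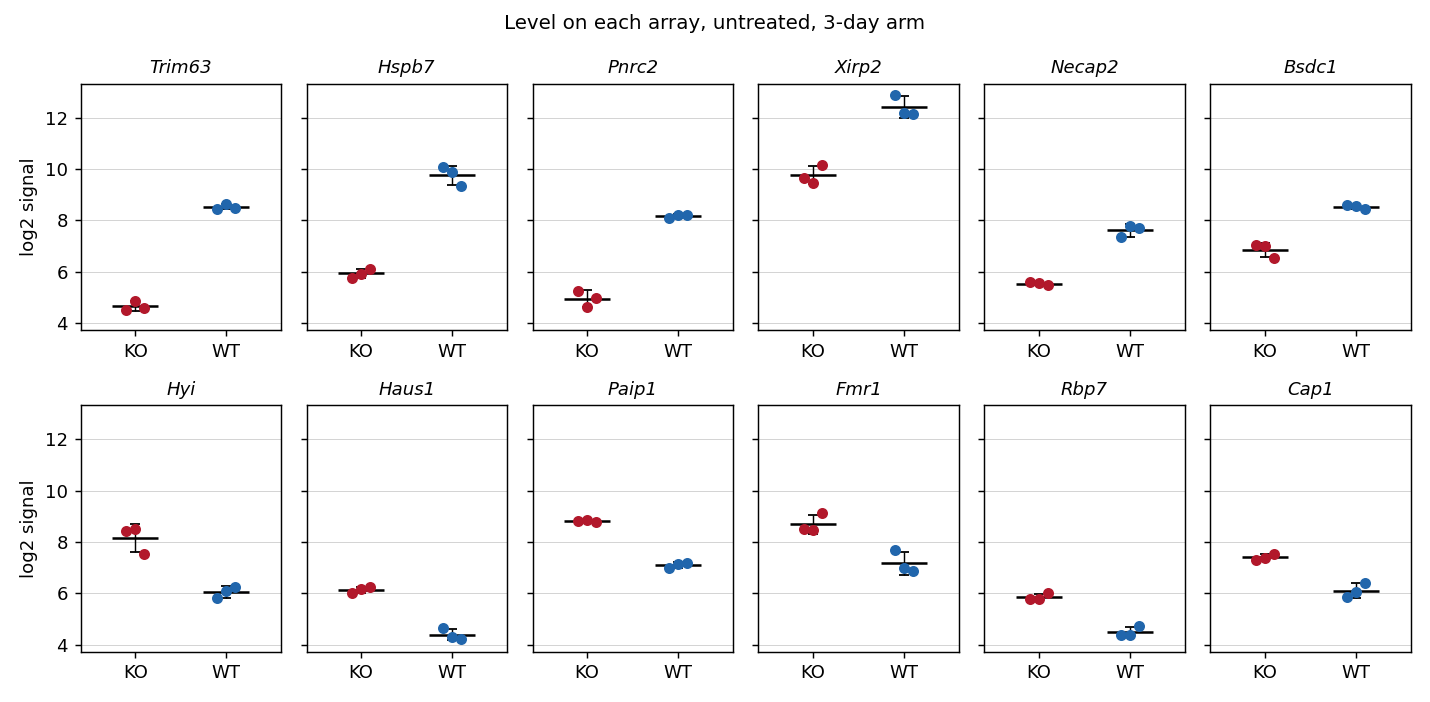
Log2 signal on each array for 6 genes lower (upper row) and 6 genes higher (lower row) in KO muscle, KO in red on the left and WT in blue on the right; bars are group means and whiskers 1 SD of 3 arrays. KO and WT arrays do not overlap in any panel, and Hyi has 1 KO array, at 7.52, below the other 2.

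Some of the largest differences belonged to probes that carry no gene name in the annotation used. ILMN_2417556 read 10.73, 11.06 and 11.62 on the KO arrays, against 4.59, 4.51 and 4.44 on the WT arrays, none of which detected it, so its signal was at least 88.3-fold higher in KO muscle (limma adjusted p = 2.6e-15). ILMN_2417233 read 7.24, 7.20 and 7.73 in KO muscle, against 4.34, 4.41 and 4.33 in WT muscle, at least 6.59-fold higher (adjusted p = 4.87e-09). ILMN_1215654 ran the other way, at 4.22, 4.31 and 4.37 on KO arrays, none of which detected it, against 9.38, 9.13 and 9.05 on WT arrays, at least 21.8-fold lower in KO muscle (adjusted p = 6.15e-12). ILMN_2703061 was at least 3.52-fold lower (adjusted p = 3.22e-09). For these probes the groups were split into detected and not detected, 3 arrays against 3.

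Many of the named genes lay on chromosome 4, where Trim63 itself lies. Of 649 tested genes there 17 passed (2.62%), against 39 of all 11010 named genes (0.354%), and these 17 made up 43.6% of the named genes that passed while chromosome 4 held 5.9% of the genes tested. In the order of measured genes they ran from Zfyve9, 190 places before Trim63, to Clstn1, 119 places after it. The bounds were thus set by the genes that passed. These 2 end genes did not pass in 5 (Zfyve9) and 4 (Clstn1) of the 6 fits that left out 1 array. That stretch held 310 genes, of which 17 passed (5.48%) and 293 did not, and the median log2 fold change of those 293 was -0.02. The genes that passed were scattered through it: before Trim63 came Zfyve9, Hyi, Cap1, Zmym6, Bsdc1, Eya3 and Gpn2, and after it Pnrc2, Padi2, Necap2, Hspb7, Zfp933, Agtrap, Ube4b, Rbp7 and Clstn1. Of the 17, 14 were lower and 3 (Hyi, Cap1 and Rbp7) higher in KO muscle. Agtrap, an angiotensin receptor-associated protein, had a log2 fold change of -0.99 (limma adjusted p = 0.0091), and Zfyve9, an anchor for Smad proteins, had -0.64 (adjusted p = 0.0214).

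Most of the closest neighbours of Trim63 did not pass. Among the 25 measured genes on each side of it, 2 of 50 passed (4%), Gpn2 at 14 places before and Pnrc2 at 18 places after. That share stood beside 0.354% of all named genes and 5.48% of the genes in the stretch from Zfyve9 to Clstn1. The other 48 had log2 fold changes between -0.92 and 0.55, with a median of -0.08. The lowest of them was E2f2, a cell-cycle transcription factor, which no KO array detected and which read 4.59, 4.57 and 4.54 in KO muscle, against 5.35, 5.56 and 5.54 in WT muscle (limma adjusted p = 0.109). Genes that passed thus lay on both sides of Trim63 over a long run, with many that did not pass between them.

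Smaller runs lay on chromosomes 8 and 13, with bounds drawn after their values were seen. On chromosome 8, 5 of the 45 measured genes between Gatad2a and Bst2 passed (11.1%). Use1, a SNARE protein of the endoplasmic reticulum, at -0.72, and Babam1, a subunit of the BRCA1-A complex, at -0.75, were lower there, and Abhd8 was higher. The 40 others in that run lay between -0.74 and 0.95. Of the 5, Gatad2a passed in each of the 6 fits that left out 1 array. Abhd8, Babam1, Bst2 and Use1 did not pass in 6, 4, 2 and 1 of those fits. On chromosome 13, 4 of 11 measured genes between Parp8 and Zfp131 passed (36.4%), with Paip1 higher and Parp8, 4833420G17Rik and Zfp131 lower. The 7 others in that run lay between -0.38 and 0.16, and the 4 that passed did so in each of the 6 fits. In all, 26 of the 39 named genes lay on chromosome 4 or in these runs, and 13 elsewhere. Of the 26, 20 also passed in the untreated 14-day arm, and of the 13, 4 did, namely Xirp2, Haus1, Rab6b and Rab4a. In the chromosome 8 run Gatad2a alone of the 5 passed there (limma adjusted p = 0.0286). Use1, Babam1, Abhd8 and Bst2 did not (adjusted p = 0.557, 0.354, 0.0908 and 0.253), nor did Zfyve9 on chromosome 4 and Parp8 on chromosome 13.

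**Figure D3:**
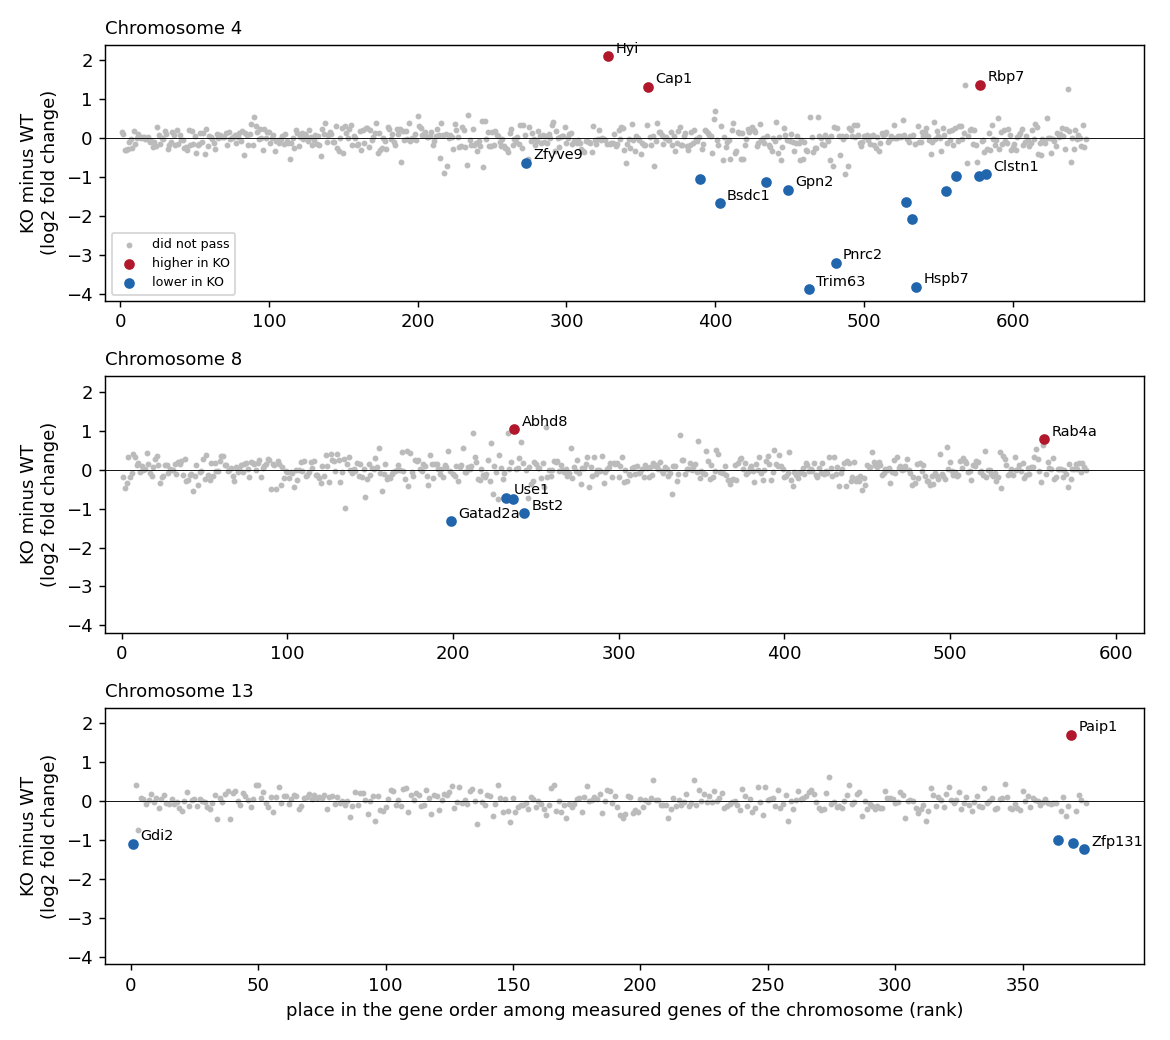
Fitted log2 fold change, KO minus WT, of each measured named gene by its rank in the gene order of chromosomes 4, 8 and 13; red marks genes higher and blue genes lower in KO muscle, grey those that did not pass. The 17 genes that passed on chromosome 4 lie on both sides of Trim63 among many genes near 0, and 4 that passed on chromosome 13 lie close together at its end.

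The untreated 14-day arm gave the same contrast on 6 other arrays, normalised together with these. There 57 of 16262 features passed (0.351%), and 32 passed in both arms in the same direction, which is 60.4% of the 53 and 56.1% of the 57. None passed in opposite directions. Of the 53, 50 had the same sign in the 14-day arm, against 50.9% of all features. Some large log2 fold changes were close in size, such as those of Hspb7, -3.83 in the 3-day arm and -3.78 in the 14-day arm. Pnrc2 had -3.21 and -3.39, Hyi 2.10 and 2.39, and Paip1 1.71 and 1.74. Others lay further apart: Trim63 had -3.88 and -3.21 and Xirp2 -2.65 and -3.19. Among unnamed probes ILMN_1215654 had -4.89 and -5.82, and ILMN_2417556 had 6.63 and 6.07. The difference between the arms was tested itself, and 0 features passed in limma, with 1216 at an unadjusted p of 0.05 and a smallest adjusted p of 0.0968.

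A few genes passed in the 3-day arm with no like value in the 14-day arm. Slc50a1, a sugar transporter, stood at 4.99, 5.14 and 4.88 on the KO arrays, against 6.15, 6.26 and 5.83 on the WT arrays (log2 fold change -1.08, limma adjusted p = 0.0124), and had 0.46 in the 14-day arm. The difference between the arms was -1.54 for it (adjusted p = 0.178). Gdi2, which extracts Rab proteins from membranes, was not detected on any KO array of the 3-day arm and was at least 1.84-fold lower (adjusted p = 0.00714), against a log2 fold change of 0.03 in the 14-day arm. Lama4 had 0.70 and -0.22 in the 3-day and 14-day arms, and Ncaph2 0.59 and 0.09. None of these differences between arms passed.

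**Figure D4:**
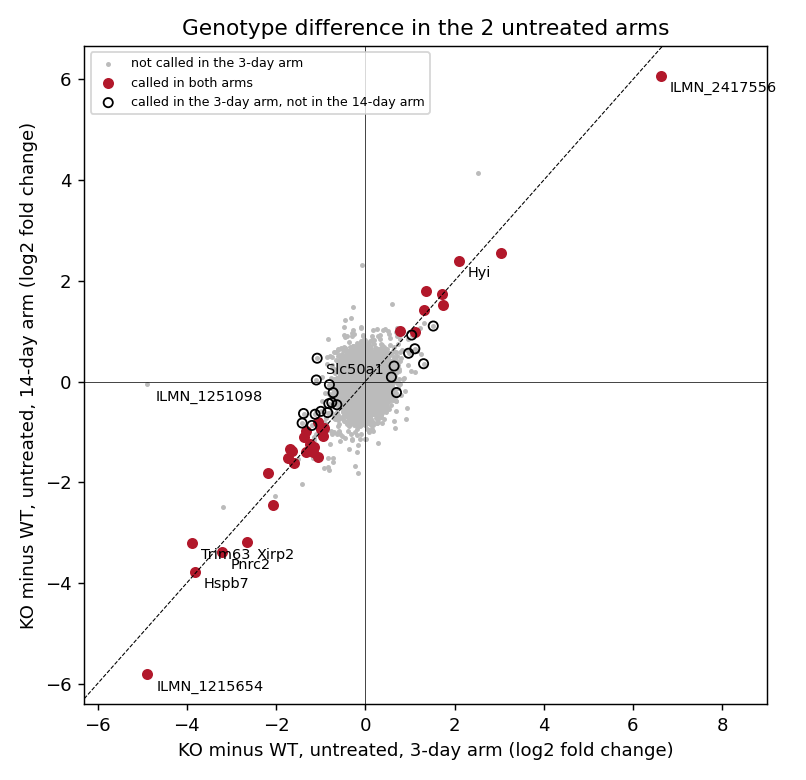
Fitted log2 fold change, KO minus WT, in the untreated 3-day arm (across) and the untreated 14-day arm (upward) for 16262 features; red points passed in both arms, open circles in the 3-day arm alone, and the dashed line marks equal values. The 32 features of both arms have the same sign in each, while Slc50a1, at -1.08 and 0.46, changes sign.

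Under dexamethasone the genotypes were compared on 6 further arrays in each arm. Of the 53 features 37 passed there in the 3-day arm, where 84 features passed in all (0.517%), and 35 passed in the 14-day arm, where 98 did (0.603%). In all 4 genotype comparisons 28 features passed, 9 of them higher and 19 lower in KO muscle, and 21 of the 28 were named genes. Another 10 passed in the untreated 3-day arm and in none of the other 3. Log2 fold changes of Hspb7 were -3.77 and -3.73 under dexamethasone in the 3-day and 14-day arms, those of Pnrc2 -3.70 and -3.40, and those of Paip1 1.83 and 1.62. Nmrk2 had 0.97 here, against 0.56 in the untreated 14-day arm and 0.70 and 1.75 under dexamethasone in the 3-day and 14-day arms.

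Genes were also grouped by function. Across 37 lists that cover muscle structure, metabolism, signalling and other cell types, 614 distinct genes were measured, and 5 of them passed: Trim63, Ube4b, Xirp2, Hspb7 and Bst2, all lower in KO muscle. That is 0.814% of the measured list genes, Trim63 included, beside 0.326% of all features and 0.354% of named genes. Trim63, Ube4b and Hspb7 lie on chromosome 4 and Bst2 in the run on chromosome 8, while Xirp2 lies on chromosome 2. The part of gene position in these list results was not tested. In 33 lists no member passed. List medians ran between -0.29 and 0.39, beside 0.003 for all features.

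Of 18 measured ubiquitin ligases of muscle, 2 fell, 0 rose and 16 did not pass, with a list median of -0.07. Trim54, the relative MuRF3, read 10.58, 10.32 and 10.37 on the KO arrays, against 10.46, 10.54 and 10.51 on the WT arrays, a log2 fold change of -0.08 (95% interval -0.41 to 0.25). Fbxo32 read 8.65, 8.69 and 8.45 in KO muscle, against 8.81, 8.89 and 8.80 in WT muscle (-0.24, interval -0.73 to 0.25). Neither Trim54 nor Fbxo32 passed, and Trim55 was not among the measured genes. Asb2, a ligase subunit of muscle, had 0.41 (limma adjusted p = 0.517). None of 36 proteasome subunits passed (median -0.04), with Psmc1 at -0.46 and Psmb5 at -0.35. None of 24 autophagy and lysosome genes passed either (median -0.06); Tfeb, a transcription factor of lysosomal genes, was not detected on any KO array and read 4.69, 4.63 and 4.27 in KO muscle, against 5.39, 5.22 and 5.20 in WT muscle (adjusted p = 0.45).

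Proteins of the sarcomere are the best known partners of MuRF1, but the arrays read transcripts and protein was not measured. Of 17 measured genes of the thick filament, titin and M-band none passed, and their median log2 fold change was 0.01. Titin (Ttn) had a difference of 0.01 (95% interval -0.26 to 0.28), myosin-binding protein Mybpc2 of 0.04 (interval -0.35 to 0.44), the fast myosin Myh4 of -0.19 (interval -0.50 to 0.13) and creatine kinase Ckm of -0.18 (interval -0.50 to 0.14). With each array centred on its median the differences of Ttn and Mybpc2 turned to -0.30 (SE 0.212) and -0.37 (SE 0.257), so these intervals hold for quantile-normalised values. Myom3, an M-band protein of slower fibres, read 9.09, 8.59 and 9.48 on the KO arrays, against 9.98, 10.05 and 9.31 on the WT arrays, which overlap (-0.73, limma adjusted p = 0.599), and it passed in the 14-day arm at -1.51 (adjusted p = 0.00999). Myom3 lies 16 places after Trim63 in the order of measured genes, and the part of that position in its values was not tested. Myh8, the perinatal myosin, had 0.76 (adjusted p = 0.695).

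Thin filament, Z-disc and stretch-response genes gave 1 call among 28, Xirp2, and a median of -0.04. Ankrd1, a titin-binding ankyrin-repeat protein that responds to stretch, had -0.31 here, against -1.05 in the 14-day arm, where it passed (limma adjusted p = 0.0247). None of 12 slow and none of 13 fast fibre genes passed, with medians of 0.03 and 0.03. None of 16 genes of excitation-contraction coupling passed (median -0.07), among them Jph2, a junctional protein, at -0.34 and Casq1, the calcium store protein, at -0.23. Of 17 heat shock proteins Hspb7 fell and the other 16 did not pass (median of the list 0.06), with Dnajb1 at 0.34.

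The lists of metabolic genes gave no call, while the enzyme genes Nmrk2 and Hyi, which passed, belong to no list. Of 47 oxidative phosphorylation subunits none passed (median -0.003), the highest being Ndufa4 at 13.82, 13.96 and 13.44 in KO muscle, against 12.69, 13.24 and 13.45 in WT muscle (0.61, limma adjusted p = 0.171). None of 20 glycolysis and glycogen genes passed (median -0.07), with Ppp1r3c, which targets a phosphatase to glycogen, at 0.70 and Pfkfb3 at -0.61. None of 27 genes of lipid handling passed (median -0.01), with the desaturase Scd1 at -0.64 and Lipe at -0.51. Among 12 regulators of the PGC-1 group the mitochondrial transcription factor Tfam had the largest difference, -0.58 (adjusted p = 0.268).

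Signalling lists gave none either. Among 23 insulin, IGF and mTOR genes (median -0.02) Igfbp3 had -0.58 and Eif4ebp1, a repressor of translation, -0.44. Among 20 genes of myostatin, activin and BMP signalling (median 0.04) Id1 had 0.55. Among 27 glucocorticoid-responsive genes (median 0.02), in muscle that had received no glucocorticoid, Tsc22d3 had 0.77, Cish -0.75 and Arrdc2 -0.74, with none past the threshold. Immediate early genes had a median of 0.20 over 16 measured members, 10 of them above 0. The highest were Egr1 at 0.86, Dusp1, a phosphatase that acts on MAP kinases, at 0.74 (limma adjusted p = 0.109), and Fos at 0.67. Dusp1 read 10.88, 10.82 and 10.65 on the KO arrays, against 9.99, 9.99 and 10.15 on the WT arrays, which do not overlap. Among 14 clock genes (median -0.09) Nr1d2 had 0.91 (adjusted p = 0.174), Per1 -0.47 and Nr1d1 -0.41. Nr1d2 and Nr1d1, which encode the related repressors REV-ERB beta and alpha, thus had differences of opposite sign. In the untreated 14-day arm 3 clock genes passed, Per2 at 2.31, Dbp at 1.48 and Ciart at 1.26 (limma adjusted p = 0.0029, 0.0192 and 0.000653), and the list median was 0.34. The same genes had -0.07, -0.28 and -0.32 in the 3-day arm, and the difference between the arms did not pass for any of them (adjusted p = 0.275, 0.308 and 0.0968).

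**Figure D5:**
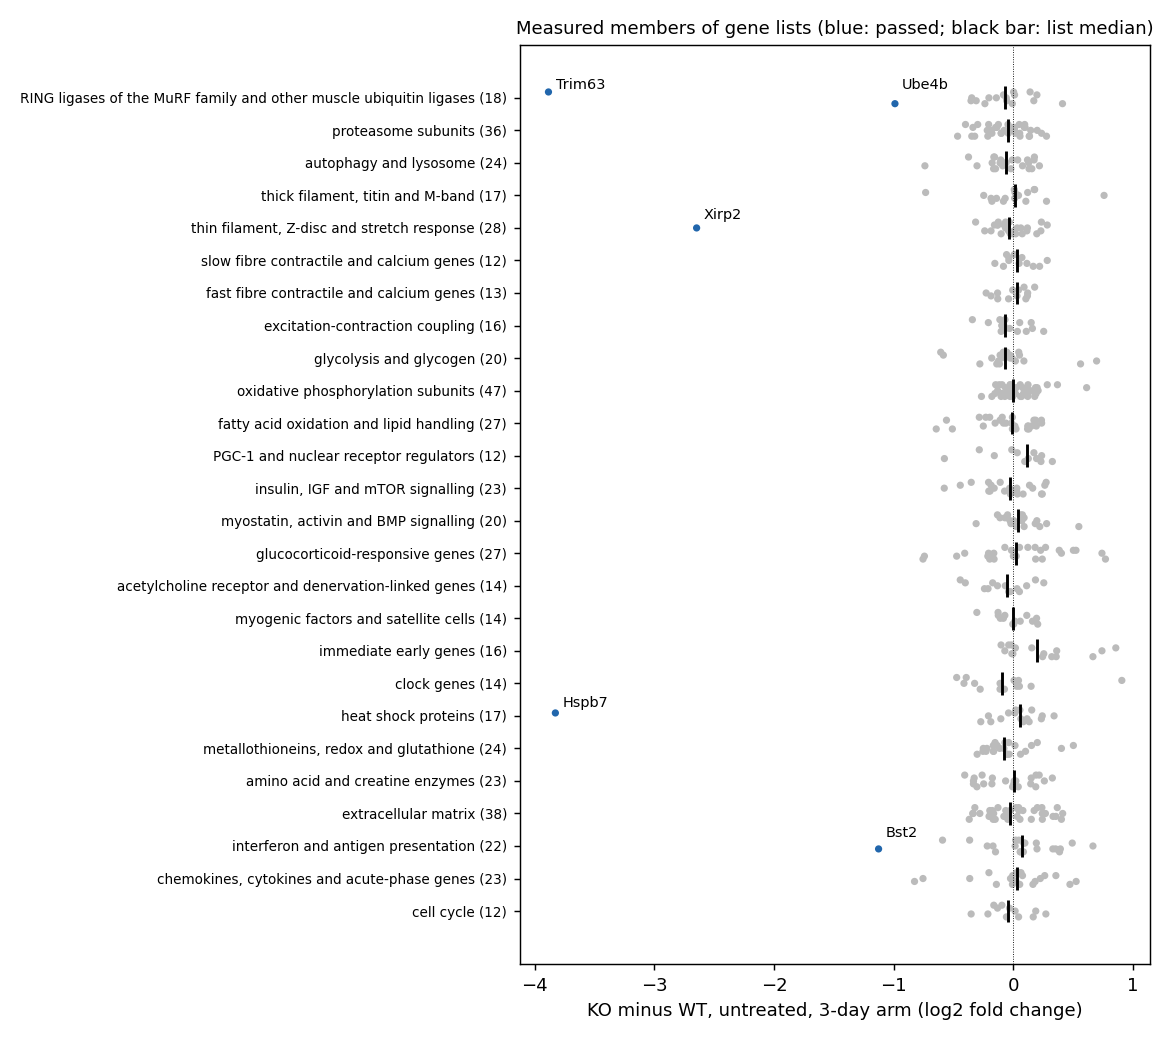
Fitted log2 fold change, KO minus WT, of the measured members of 26 lists (number measured in brackets), with blue points for genes that passed, grey for those that did not and black bars at list medians. The 5 genes that passed lie below 0, and the black bars lie close to it.

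Markers of other cell types were compared as the mean level of each list on each array. Tendon markers were at 6.88 to 7.41 on KO arrays and 6.59 to 7.10 on WT arrays, with a list median of 0.39 and none of 9 past the threshold. Comp, a matrix protein of tendon and cartilage, read 9.16, 8.98 and 8.23 in KO muscle, against 7.57, 7.81 and 8.15 in WT muscle (0.95, limma adjusted p = 0.517). Tnmd, a tendon membrane protein, had 0.77. Schwann cell and myelin markers were at 5.79 to 6.03 on KO arrays and 5.92 to 6.41 on WT arrays (median -0.29, none of 7 passed), with the myelin basic protein gene Mbp at -0.66. Macrophage markers were at 6.13 to 6.27 on KO arrays and 6.004 to 6.25 on WT arrays, with a list median of 0.12 and 10 of 16 members above 0, between Fcgr3 at -0.52 and Lyz2 at 0.61. Fibroblast markers were at 8.01 to 8.26 and adipocyte markers at 6.72 to 7.13 on KO arrays, against 7.95 to 8.15 and 7.02 to 7.24 on WT arrays. Group ranges overlapped in these lists. Neutrophil markers did not overlap, at 4.52 to 4.64 on KO arrays and 4.66 to 4.78 on WT arrays, but none of the 6 was detected on all arrays. No marker of another cell type passed. The part of these levels in the genotype difference was not tested. Xist, the RNA of the inactive X chromosome, was detected on all 6 arrays, at 8.34, 7.97 and 8.89 in KO and 8.62, 8.21 and 8.20 in WT muscle. The other of 2 measured genes in the sex-linked list had a log2 fold change of 0.37 and did not pass. Its KO and WT arrays did not overlap, as for 13.2% of all features.

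Single arrays and single probes bear on the smaller differences. Without KO replicate 3, 37 features passed, 34 of them among the 53, and all 53 kept their direction. Of the 39 named genes 22 passed in each of the 6 fits that left out 1 array and 17 did not pass in at least 1, with adjusted p up to 0.368. Without KO replicate 3 the lost genes were Abhd8, Agtrap, Babam1, Cd59a, Clstn1, Fmr1, Gdi2, Lama4, Ncaph2, Nmrk2, Rab4a, Rasgef1b, Slc50a1, Txnl1 and Zfyve9, with adjusted p of at most 0.238 in limma. Without WT replicate 2, Bst2 and Use1 were also lost, with adjusted p of at most 0.174 among the 12 genes lost there. Leaving out KO replicate 1, KO replicate 2, WT replicate 1 or WT replicate 3 lost 10, 7, 10 and 9 named genes, which were among those given, with adjusted p of at most 0.179, 0.132, 0.368 and 0.233. Ncaph2 and Abhd8 passed in none of the 6 fits, with log2 fold changes of 0.53 to 0.63 and 0.92 to 1.11. Trim63 stayed between -3.99 and -3.82, Hspb7 between -4.04 and -3.68, Pnrc2 between -3.36 and -3.05 and Xirp2 between -2.85 and -2.41 in those fits. Of the 39 named genes 28 had no other kept probe, and of the 11 that had one, 0 had another that passed in either direction. The other probes of Nmrk2 gave 0.57 and -0.49. Second probes with clear signal in both groups gave -0.17 for Use1 (means of 7.73 in KO and 7.90 in WT muscle), -0.13 for Zfyve9 (8.04 in KO and 8.17 in WT) and 0.10 for Ncaph2 (6.60 in KO and 6.50 in WT). With each array centred on its median in place of quantile normalisation, Cap1, Fmr1, Rab4a, Rasgef1b, Nmrk2, Abhd8, Lama4 and Ncaph2, all higher in KO muscle, did not pass.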

How the data were processed

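Total RNA had been labelled with biotin and hybridised, per the labels, to Illumina mouse beadchips. The deposited table of non-normalized values gave the average signal intensity of 46632 probes on each of 24 arrays, and a detection p-value for each, per the file headers. The submitters' processing notes list BeadStudio 3.2.3 with no role. The deposited value table held intensity values normalised by the authors and served as an alternative. Its numbering of replicates differs in 5 groups. The text uses that of the first table.

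Signals were background-corrected from the detection p-values, quantile-normalised and log2-transformed with an offset of 16 (neqc, limma 3.58.1, R 4.3.3), so fold changes of dim probes are understated. Probes detected at p under 0.05 on at least 3 of 24 arrays were kept, 20769 in all. Each gene was read by its brightest kept probe and unnamed probes singly, which left 16262 features, 11010 of them named. Names came from the platform annotation (1 symbol for 29976 probes, several for 10, none for 16646), and gene order from RefSeq (GRCm38.p6). The files name no genome build, so no coordinates are given.

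A mean for each of 8 groups was fitted in limma with 16 residual degrees of freedom, and p-values were adjusted by the Benjamini-Hochberg method over all features (threshold 0.05). Intervals are 95%. The number of arrays limits the precision. The fit was tested on simulated data. Named were Trim63, up to 15 genes per direction with the largest differences, list members that passed, the 3 members of a list with the largest differences, and the 25 neighbours of Trim63 on each side as counts. Other genes were named after their values were seen. Members and lists were chosen with earlier results of these data known. By the rule that every same-numbered pair must correlate above 0.1, replicate numbers of neither table paired the arrays. Alternatives covered the filter, probe choice, normalisation, arrays fitted, array weights, variance prior, replicate block and leaving out single arrays.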

Additional observations from a re-analysis of the deposited data

How the results depend on the processing

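The 53 calls kept their direction under each alternative run, and their number stayed between 37 and 67 except as follows. Centring each array on its median in place of quantile normalisation shifted the median log2 fold change of all features to -0.26 and gave 121 calls, 7 higher and 114 lower against 17 and 36, with 43 of the 53 among them. Array weights gave 135 calls, the 53 included. Fitting the 6 arrays alone gave 52 calls, 39 of the 53 among them. Leaving out 1 array gave 37 to 47. The replicate block gave 54 calls here, 60 in the untreated 14-day arm and 87 and 91 under dexamethasone (3 and 14 days); with the value table's numbers, chosen after seeing the data, it gave 59, 70, 125 and 138. Deviations of same-numbered KO and WT arrays correlated at -0.257, 0.079 and -0.33 by the first table's numbers, under which no KO array matched its own number best. By the value table's numbers they correlated at 0.39, 0.079 and 0.194, under which 2 of 3 KO arrays did, a hint from the data and not the design. Of 43 called genes and probes followed, 25 passed under all 17 alternatives planned for them, 18 did not under at least 1 and 0 reversed. In the untreated 14-day arm, 57 calls became 30 with median centring, 2681 with array weights, 87 without the dexamethasone KO array that stood apart on the first component of all 24 (chosen after seeing the data) and 35 to 159 without 1 array. Under dexamethasone, leaving out 1 array gave 40 to 92 calls in the 3-day arm and 46 to 121 in the 14-day arm. The difference between untreated arms, with 0 calls, had 1 with every kept probe, 5 with median centring, 2 without background correction, 5 in the authors' table, 352 with array weights, 1 with the replicate block and 0 to 4 without 1 array. Among genes that did not pass, signs turned with median centring for Ttn (-0.30), Mybpc2 (-0.37), Dnajb1 (-0.16) and Col1a1 (-0.15). Leaving out 1 array moved Ttn between -0.043 and 0.076, Mybpc2 between -0.057 and 0.22, Ckm between -0.29 and 0.021, Acta1 between -0.18 and 0.013 and Per2 between -0.17 and 0.095, which had 0.023 with array weights. The cause of these shifts was not tested.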

Other observations

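One probe without a gene name, ILMN_1251098, split the KO arrays. It read 4.18, 4.13 and 9.90 on the untreated KO arrays of the 3-day arm, against 11.27, 10.80 and 10.84 on the WT arrays, and was detected on 1 of 3 KO arrays and 3 of 3 WT arrays. Its log2 fold change was -4.90 with a limma adjusted p of 0.0895, so it did not pass, although its fitted difference was the lowest of all features. In the untreated 14-day arm its log2 fold change was -0.06, and under dexamethasone -4.73 in the 3-day arm and 0.13 in the 14-day arm. It was singled out after its values were seen.

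Antigen presentation genes gave values in both directions. Cd74, the invariant chain of class II molecules, read 9.21, 9.39 and 8.87 on the KO arrays, against 8.19, 8.46 and 8.83 on the WT arrays (log2 fold change 0.67, limma adjusted p = 0.423), and H2-K1, a class I heavy chain, had -0.59 (adjusted p = 0.44). Among growth hormone and cytokine pathway genes Socs2, an inhibitor of cytokine signalling, read 9.15, 9.18 and 9.30 in KO muscle, against 10.04, 9.70 and 10.37 in WT muscle (-0.82, adjusted p = 0.553), and had 0.84 in the untreated 14-day arm. None of these passed.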
